A study of Homo sapiens with 75 samples.

Results

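G361 is a human melanoma line, a cancer of pigment cells. It was irradiated with 5 Gy of ionising radiation and its messenger RNA was measured on 3 arrays 6 h later and on 3 arrays 3 h later; these 6 arrays, out of 75 in the series and 15 of G361, were chosen by their titles alone. Each titled replicate number occurs once at each time. The other G361 arrays, 3 in each group, were untreated (mock-irradiated) cells at 0 h, 3 h and 6 h, and the same 5 groups existed for the lines labelled TK6, U2OS, BJ and HepG2. The labels name no transgene, knockdown or drug in any group. Nor do they say that replicates were cultured apart, and the spread behind each p-value may therefore be technical. Values are log2 expression, on which a difference of 1 is a 2-fold change, and a level of 1 gene cannot be set against that of another.

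DNA double-strand breaks activate the kinase ATM, which stabilises the transcription factor p53. p53 switches on genes for arrest (CDKN1A), for its own degradation (MDM2), for DNA repair (DDB2, XPC) and for apoptosis (FAS), and through p21, the product of CDKN1A, lets repressor complexes silence the genes that drive cells through G2 and mitosis. Those mitotic genes share promoter elements, among them the cell cycle homology region and CCAAT boxes. The comparison asked which transcripts moved between 3 h and 6 h after the dose.

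The 6 arrays correlated with each other at 0.990 to 0.996 and with no array of another line above 0.928, and array medians of the series lay between 3.91 and 4.07 log2. The arrays carried pigment cell transcripts: over the 15 G361 arrays MLANA averaged 12.4 log2, PMEL 12.9 and TYR 11.9, and each of 7 measured melanocyte markers exceeded its mean in the other lines, whereas 5 of 10 hepatocyte, 5 of 10 B lymphoid, 2 of 6 osteoblast and 6 of 12 fibroblast markers lay below the level limit of 3.50 log2 in G361. The mean over the melanocyte markers was 11.3 to 11.4 log2 at 6 h and 11.3 to 11.5 log2 at 3 h, and no tested marker of the 5 cell types was called between the times. The G361 replicate 1 arrays had a weak 5′ GAPDH control (5′ minus 3′ difference of -0.94 in irradiated cells at 6 h, -0.68 in irradiated cells at 3 h, between these in the other G361 replicate 1 arrays and at or above -0.18 elsewhere). Without replicate 1 the genes called between the times numbered 388, against 232 with it, the mitotic genes called lower 43 in both fits, and the p53 targets called higher 24, against 23. Arrays labelled HepG2 had ALB at 2.77, APOA2 at 2.73 and FGB at 2.82 log2, beside 2.81, 2.70 and 2.78 log2 in G361. Their APOA1, APOB, APOH, TTR, SERPINA1 and TF stood at 4.07, 3.02, 3.695, 4.51, 3.26 and 4.20 log2. In G361 these stood at 4.18, 3.03, 3.77, 4.79, 3.11 and 4.35 log2. AFP stood at 5.89 log2, beside 3.54 in G361 and 5.48 in U2OS. The arrays labelled HepG2 are called here by their label only.

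The labels of the untreated G361 arrays need stating before the results. The mean level of the 43 tested p53 targets, relative to the 0 h arrays, was 0.47, 0.52 and 0.30 log2 (replicates 1 to 3) in irradiated cells at 6 h, against 0.15, 0.11 and -0.02 log2 in irradiated cells at 3 h. Untreated cells had 0.59, 0.57 and 0.04 log2 at 6 h, against 0.15, 0.11 and 0.49 log2 at 3 h. Replicates 1 and 2 labelled untreated 6 h, and replicate 3 labelled untreated 3 h, thus stood within or above the range of the irradiated 6 h arrays. The mean level of the 49 mitotic genes ran the other way, at -0.27, -0.40 and -0.36 log2 in irradiated cells at 6 h, against 0.23, 0.30 and 0.18 log2 in irradiated cells at 3 h. In untreated cells it was -0.28, -0.16 and 0.16 log2 at 6 h, against 0.21, 0.27 and -0.29 log2 at 3 h. All arrays were kept in the group their label gives. The comparison of irradiated 6 h with irradiated 3 h cells uses none of the untreated arrays.

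**Figure D1:**
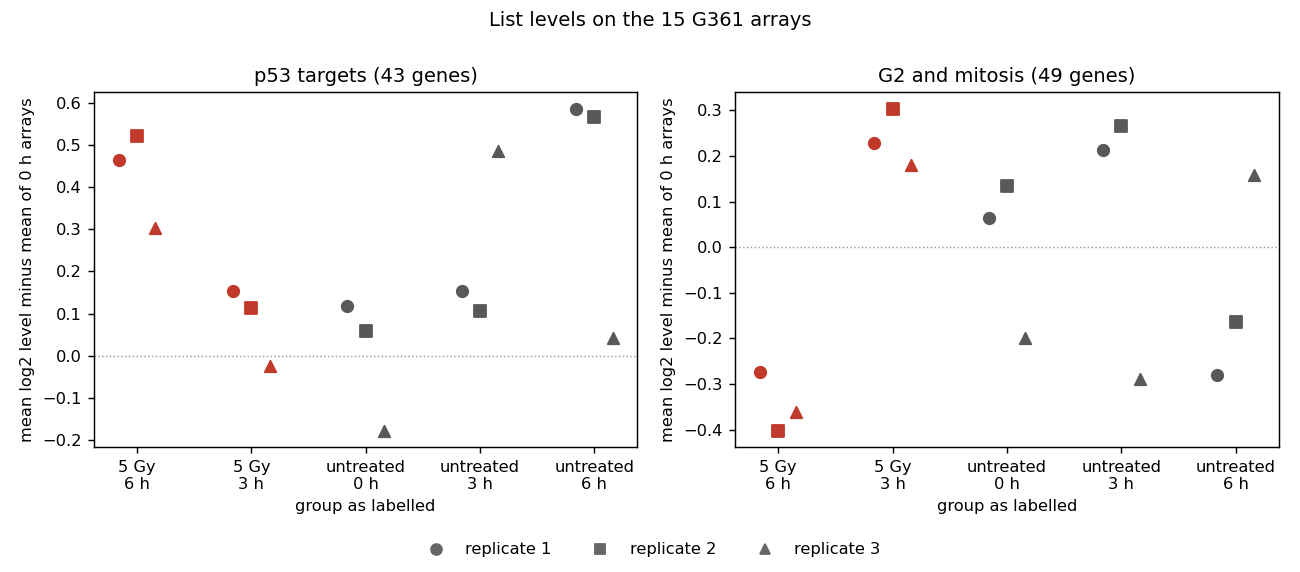
Mean log2 level of the 43 tested p53 targets (left) and the 49 G2 and mitosis genes (right) on the 15 G361 arrays, minus the mean of the 3 arrays at 0 h; symbols give the replicate number and red marks arrays labelled as irradiated with 5 Gy. The irradiated 6 h arrays lie at 0.30 to 0.52 for p53 targets and -0.40 to -0.27 for mitosis genes, and 3 arrays labelled untreated (replicates 1 and 2 at 6 h, replicate 3 at 3 h) lie at 0.49 to 0.59 for p53 targets.

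Between 3 h and 6 h after irradiation the p53 targets of G361 rose and the genes of G2 and mitosis fell. Across all 14487 genes tested, 232 were called (1.6%), 85 higher at 6 h (0.587%) and 147 lower (1.01%), with limma and the replicate number as a block at an adjusted p under 0.05. The count at an unadjusted p under 0.05 was 1794. Only 11 calls reached 2-fold, 6 higher and 5 lower. The median of all genes was -0.01 log2. All 232 called genes moved the same way in each of the 3 pairs, and in 174 of them the 6 h and 3 h arrays did not overlap; over all genes all 3 arrays at 6 h lay above those at 3 h in 3.24% and below in 4.49%. The count was 68 without replicate 2 and 7 without the block; centring each array on its median gave 110 higher and 120 lower. Within these 6 arrays, time after irradiation and time since handling cannot be told apart.

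The p53 targets were the group that rose. Of 49 listed genes, 46 were measured and 43 passed the level limit; 23 were called higher and 0 lower, with a median difference of 0.32 log2 beside -0.01 over all genes tested. Over all genes tested 0.587% were called higher. In 17 of the 23 the 6 h arrays did not overlap those at 3 h, beside 174 of all 232 called genes. Calls were made on these same arrays, and over all genes tested 3.24% lay wholly above. Without replicate 2, 12 p53 targets were called, and without the block 0. The median lay between 0.27 and 0.34 log2 in the alternative runs. Runs that only dropped the block or the variance trend, or added other arrays, could not change it in this balanced design.

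Among the feedback regulators of p53, 5 of 8 tested were called higher, with a median of 0.51 log2. TP53INP1, a stress protein that promotes p53 phosphorylation, stood at 8.48, 9.19 and 8.37 log2 at 6 h, against 7.15, 7.64 and 7.09 at 3 h. It differed by 1.38 ± 0.07 log2 (SE), a 2.61-fold rise (adjusted p = 9.04e-08, limma), with all 6 h arrays above all 3 h arrays. ZMAT3, an RNA-binding zinc finger protein, had 9.65, 10.07 and 9.66 log2 at 6 h, against 8.88, 9.27 and 8.97 at 3 h (difference 0.75). MDM2, the ubiquitin ligase that degrades p53, had 8.97, 9.93 and 9.11 log2 at 6 h, against 8.39, 8.98 and 8.78 at 3 h; the groups overlapped by replicate 1 at 6 h, but each pair rose and the difference was 0.62 ± 0.09 (adjusted p = 0.00087). All 9 MDM2 probe sets above the level limit moved the same way. PPM1D, the phosphatase that dampens ATM signalling, rose by 0.40 and TRIM22, an E3 ligase, by 1.06, although the 3 h mean of TRIM22 lay below the level limit. CCNG1, MDM4 and RCHY1 were not called.

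Cell cycle arrest genes had 3 of 6 called. CDKN1A, which encodes the CDK inhibitor p21, measured 9.43, 9.82 and 9.26 log2 at 6 h, against 8.39, 8.56 and 8.02 at 3 h. This was a 2.27-fold rise (1.18 ± 0.06 log2, adjusted p = 9.04e-08), with no overlap. GADD45A, a stress sensor in G2 arrest, rose by 0.51 and PLK2, a polo-like kinase induced by p53, by 0.41. SFN, PLK3 and TOB1 were not called.

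Among genes of death receptors and apoptosis 4 of 10 were called. FAS, a death receptor, had 7.56, 7.61 and 7.19 log2 at 6 h, against 6.67, 6.66 and 6.21 at 3 h. The difference was 0.94 ± 0.08 log2, and all 4 probe sets above the limit agreed in direction. TNFRSF10B, the TRAIL receptor, rose by 0.27 (3 of its 4 probe sets in that direction), TP53I3 by 0.55 and TRIAP1, which restrains apoptosis, by 0.28. BAX, the pore former, stood at 8.46, 8.88 and 8.90 log2 at 6 h, against 8.53, 8.91 and 8.82 at 3 h, and PMAIP1 (NOXA) differed by -0.05; neither was called, nor were AEN, PHLDA3, PERP and TP53AIP1.

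DNA repair and nucleotide supply genes had 4 of 5 called, with a median of 0.56 log2. DDB2, which recognises ultraviolet damage, had 9.86, 9.76 and 9.41 log2 at 6 h, against 9.23, 9.09 and 8.71 at 3 h (0.67 ± 0.06). XPC, its partner in nucleotide excision repair, rose by 0.56, RRM2B, the p53-induced ribonucleotide reductase subunit, by 0.66 and ASCC3 by 0.33, while POLH differed by 0.37 without being called. In the metabolism, stress and secreted group, 7 of 14 were called. SESN1, an inhibitor of mTORC1, had 7.61, 7.89 and 7.24 log2 at 6 h, against 7.02, 7.18 and 6.74 at 3 h (0.60). DRAM1, an autophagy regulator, rose by 0.61, TIGAR, which lowers fructose-2,6-bisphosphate, by 0.50, GDF15, a secreted stress cytokine, by 0.34 and FUCA1, a lysosomal fucosidase, by 0.32. SESN2 was 0.12 higher and not called.

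Outside the list, the largest rise was PURPL, a long noncoding RNA known as a p53 target. It stood at 5.25, 5.63 and 5.29 log2 at 6 h, against 4.15, 3.94 and 3.46 at 3 h, a 2.91-fold difference (1.54 ± 0.15). TGFA, a ligand of the EGF receptor, had 7.79, 8.14 and 8.06 log2 at 6 h, against 6.76, 6.82 and 7.11 at 3 h (1.10 ± 0.09), and its 3 probe sets agreed in direction. The remaining genes among the 12 largest rises were ANKRD20A12P (1.05), PAPPA, a protease of IGF-binding proteins (0.75), ATG4A, a protease of autophagy (0.70), TMEM200C (0.69) and PDGFA, a growth factor (0.68). Each of these 7 genes lay higher on every 6 h array than on any 3 h array.

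**Figure D2:**
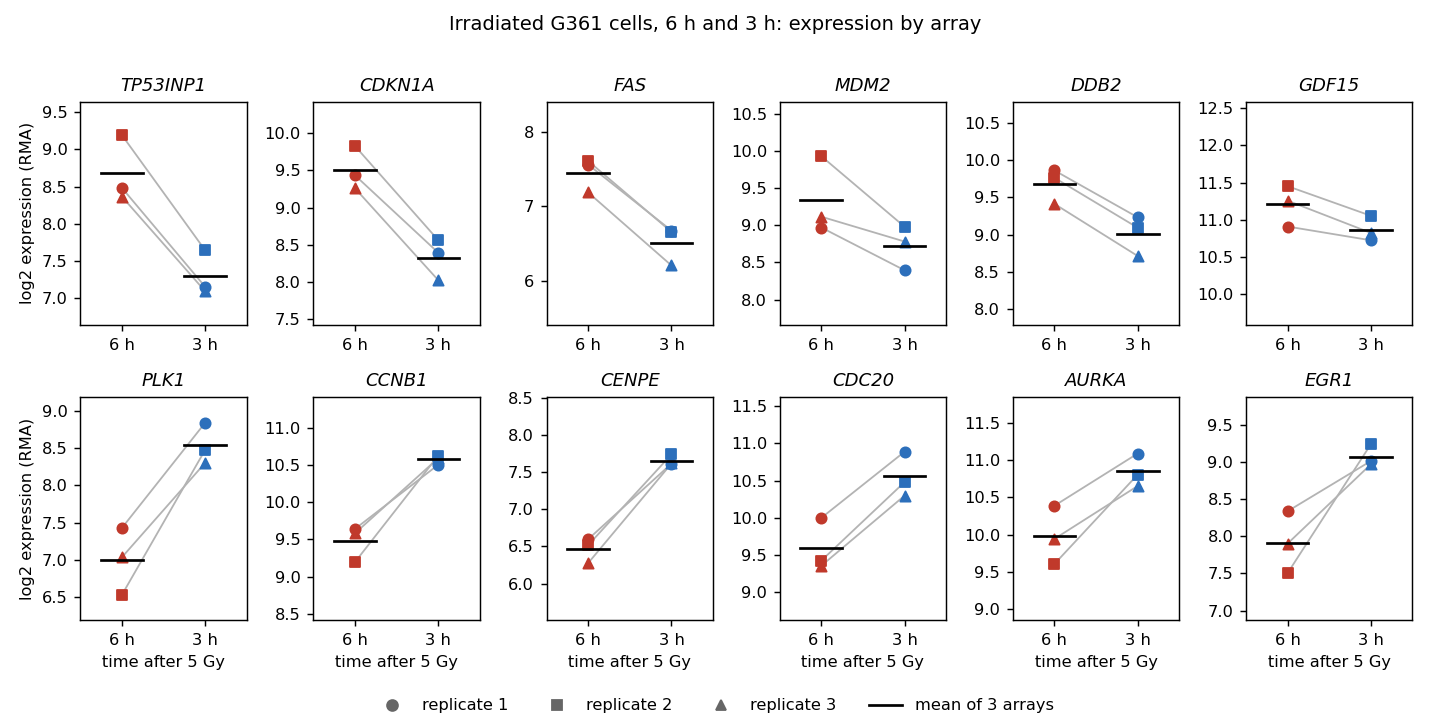
Log2 expression of 12 genes in irradiated G361 cells at 6 h (red, left) and 3 h (blue, right) after 5 Gy; symbols and grey lines join arrays of one replicate number and black bars are means of 3 arrays. Each panel spans 3 log2 units. CDKN1A averages 9.50 at 6 h and 8.32 at 3 h, and CCNB1 9.47 at 6 h and 10.58 at 3 h.

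The mitotic genes fell almost throughout. All 49 listed genes of G2 and mitosis passed the level limit; 43 were called lower and 0 higher, with a median of -0.56 log2 beside -0.01 over all genes tested. Over all genes tested 1.01% were called lower. In 39 of the 43 the 6 h arrays lay wholly below those at 3 h, beside 174 of all 232 called genes without overlap. Calls were made on these same arrays, and over all genes tested 4.49% lay wholly below. Of the 49 differences 48 were below 0, beside 7655 of 14487 over all genes tested. Without replicate 2, 30 mitotic genes were called, and without the block 5. The median lay between -0.61 and -0.46 log2 in the alternative runs. Here too, runs that only dropped the block or the variance trend, or added other arrays, could not change it. In RNA of whole cultures, fewer cells in G2 and mitosis and less RNA per such cell cannot be told apart.

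Of the mitotic kinases, 8 of 9 fell. PLK1, the kinase that starts and directs mitosis, had 7.43, 6.53 and 7.04 log2 at 6 h, against 8.84, 8.48 and 8.30 at 3 h, the largest fall of any gene tested. It was 2.92-fold lower (difference -1.54 ± 0.10 log2, adjusted p = 1.02e-06), with no overlap between the times. AURKA, a spindle pole kinase, fell by 0.87 and AURKB, of the chromosomal passenger complex, by 0.42; MELK was not called. Cyclins, CDK1 and its regulators had 7 of 9 called. CCNB1, cyclin B1, had 9.64, 9.20 and 9.58 log2 at 6 h, against 10.51, 10.63 and 10.59 at 3 h (-1.10 ± 0.08). CCNB2 fell by 0.49, CCNA2 by 0.38 and CDC25C, a phosphatase that activates CDK1, by 0.47. CDK1 itself had 10.45, 10.74 and 10.49 log2 at 6 h, against 10.63, 10.84 and 10.69 at 3 h, a difference of -0.16 that was not called (adjusted p = 0.176).

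Kinesins and spindle proteins had 15 of 16 called. KIF18A, a kinesin that limits chromosome movement, stood at 5.99, 5.48 and 5.96 log2 at 6 h, against 6.99, 7.04 and 6.87 at 3 h (-1.16 ± 0.12). KIF20A, needed for cytokinesis, fell by 0.96, PSRC1 by 0.88, ASPM, a spindle pole protein, by 0.86, KIF2C, a microtubule depolymerase, by 0.74 and TPX2, which activates AURKA, by 0.69. All 11 genes of the centromere and checkpoint were called. CENPE, a kinetochore kinesin, had 6.60, 6.52 and 6.28 log2 at 6 h, against 7.61, 7.74 and 7.61 at 3 h (-1.19 ± 0.09), and it was called in all 12 alternatives. CDCA8, of the passenger complex, fell by 0.82 and CENPA, the centromeric histone, by 0.79. CDC20, the activator of the anaphase-promoting complex, had 10.00, 9.42 and 9.35 log2 at 6 h, against 10.89, 10.48 and 10.30 at 3 h (-0.96 ± 0.05). The E2 enzyme UBE2C also fell, while PTTG1 and FZR1 were not called. Among genes of no list, DEPDC1 fell by 0.92 and TNFAIP8L1 by 0.87.

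Promoters of 4 of these genes are shown, each with at least 1 of the elements named above. RefSeq promoter sequences (GRCh38.p14, 250 bases before to 50 after the gene start, 300 bases each) matched 36 of the 43 called genes. Capitals mark CCAAT and TTTGAA, the only form of the cell cycle homology region searched for, on both strands. A promoter without TTTGAA may hold another form of the region, which was not searched for. PLK1 lies on chr16:23678639-23678938 (plus strand), CCNB1 on chr5:69166900-69167199 (plus), CDC20 on chr1:43358731-43359030 (plus) and KIF18A on chr11:28108107-28108406 (minus).
PLK1: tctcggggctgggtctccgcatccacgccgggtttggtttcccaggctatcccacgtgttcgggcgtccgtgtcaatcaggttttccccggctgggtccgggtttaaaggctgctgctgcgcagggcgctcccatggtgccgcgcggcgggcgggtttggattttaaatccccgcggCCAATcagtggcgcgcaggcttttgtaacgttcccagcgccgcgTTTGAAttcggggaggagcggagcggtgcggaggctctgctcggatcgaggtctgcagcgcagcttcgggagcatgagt
CCNB1: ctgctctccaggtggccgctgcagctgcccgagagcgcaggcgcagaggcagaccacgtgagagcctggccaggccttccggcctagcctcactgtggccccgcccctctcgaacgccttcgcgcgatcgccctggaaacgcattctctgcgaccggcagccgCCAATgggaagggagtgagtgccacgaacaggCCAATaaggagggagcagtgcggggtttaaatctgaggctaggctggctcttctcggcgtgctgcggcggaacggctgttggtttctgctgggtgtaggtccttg
CDC20: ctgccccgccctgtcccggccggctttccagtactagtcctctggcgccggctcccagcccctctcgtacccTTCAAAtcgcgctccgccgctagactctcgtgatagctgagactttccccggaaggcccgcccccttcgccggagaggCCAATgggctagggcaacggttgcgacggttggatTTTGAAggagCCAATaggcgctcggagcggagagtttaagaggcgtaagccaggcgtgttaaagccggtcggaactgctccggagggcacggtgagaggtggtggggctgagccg
KIF18A: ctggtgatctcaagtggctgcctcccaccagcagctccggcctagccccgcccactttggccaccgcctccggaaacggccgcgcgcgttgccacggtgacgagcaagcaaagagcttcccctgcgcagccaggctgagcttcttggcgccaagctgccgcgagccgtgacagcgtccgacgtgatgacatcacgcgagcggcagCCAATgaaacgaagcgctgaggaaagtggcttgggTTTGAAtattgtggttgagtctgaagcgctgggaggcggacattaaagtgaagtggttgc
In PLK1 the TTTGAA begins 29 bases upstream of the start and the CCAAT 73 bases upstream, and in KIF18A they begin 10 and 45 bases upstream. CDC20 holds 2 TTTGAA elements (65 and 178 bases upstream, the farther one on the opposite strand) and 2 CCAAT boxes (55 and 100 bases), and CCNB1 2 CCAAT boxes (55 and 87 bases) with no TTTGAA in this window. Of the 36 genes, 24 held TTTGAA (66.7%), 31 CCAAT (86.1%) and 21 both (58.3%), beside 14.1%, 42.2% and 5.8% of the 11586 tested genes with a promoter in the table. Over all 27305 genes of the table the shares were 18.2%, 39.7% and 7.3%. Of 16 called p53 targets with a promoter, 3 held TTTGAA, 8 CCAAT and 0 both. These matches describe letters only.

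**Figure D3:**
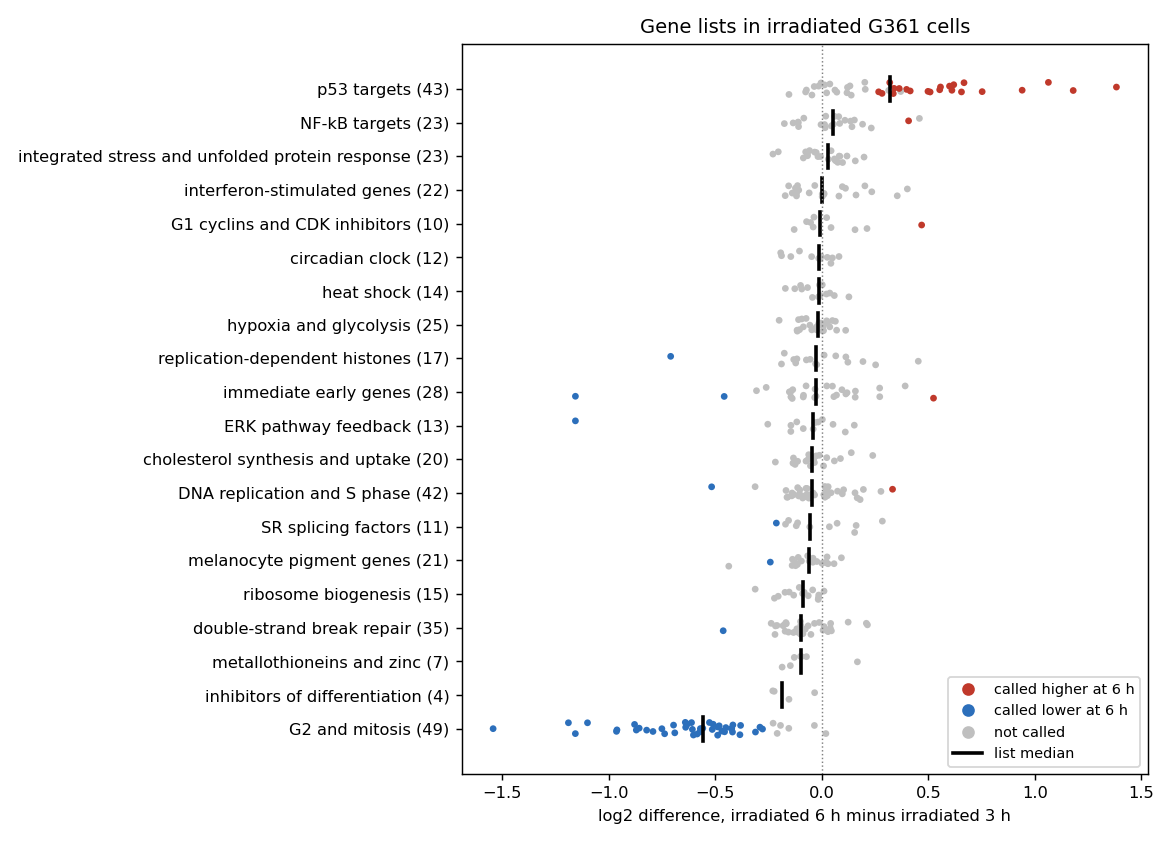
Log2 difference, irradiated 6 h minus irradiated 3 h, of each tested member of 20 gene lists (number of members in brackets), ordered by list median (black bar); red members were called higher, blue called lower and grey not called. The p53 targets (median 0.32, 23 called higher) and the G2 and mitosis genes (median -0.56, 43 called lower) are the lists with more than 3 called members.

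The other lists held few calls. Over all genes tested 0.587% were called higher and 1.01% lower, so 1 call in a list is not a result about that list. DNA replication genes, which act in S phase, had 1 of 42 called higher and 1 lower, with a median of -0.05 log2. PCNA, the polymerase clamp and itself a known p53 target, stood at 11.67, 12.07 and 12.02 log2 at 6 h, against 11.36, 11.72 and 11.69 at 3 h (0.33 ± 0.05), and DBF4, the activator of the origin-firing kinase CDC7, fell by 0.52. MCM2, CDC6, CCNE1 and E2F1 were not called. Of 17 tested replication-dependent histones 1 fell, H2BC9 by 0.71. Double-strand break repair had 1 of 35 called, H2AX, the histone phosphorylated at breaks, which fell by 0.46, while ATM, BRCA1, PRKDC and MDC1 were not called.

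In the immediate early list, transcription factors induced within minutes by growth signals, 1 of 28 rose and 2 fell. Over all genes tested the shares were 0.587% and 1.01%. EGR1, a zinc finger factor downstream of ERK, had 8.34, 7.50 and 7.90 log2 at 6 h, against 9.01, 9.23 and 8.97 at 3 h (-1.16 ± 0.13, adjusted p = 0.000107), and its 3 probe sets agreed in direction. Its relative EGR3 moved the other way, with 9.08, 9.55 and 9.54 log2 at 6 h, against 8.70, 9.03 and 8.88 at 3 h (0.52 ± 0.06). CCN1, a matricellular protein, fell by 0.46, and FOS, JUN, JUNB, MYC and ATF3 were not called. EGR1 was the call of the 13 ERK feedback genes, where DUSP4, DUSP6 and SPRY2 were not called.

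Pigment genes and the remaining lists had few calls, beside 0.587% called higher and 1.01% lower over all genes tested. MITF, the melanocyte master regulator, had 11.53, 11.54 and 11.62 log2 at 6 h, against 11.50, 11.52 and 11.58 at 3 h, and TYR, TYRP1, PMEL, MLANA and SOX10 were not called. Of the 21 pigment genes 1 fell, MLPH, a melanosome transport protein, by 0.24. Among 23 NF-kB targets TNFAIP3, the A20 inhibitor of the pathway, rose by 0.41, with NFKBIA, CXCL8, IL6 and ICAM1 not called. CDKN1C, the CDK inhibitor p57, rose by 0.47 among 10 tested G1 genes, and SRSF7 fell by 0.21 among 11 SR splicing factors. No member was called of the interferon-stimulated genes (22 tested), integrated stress and unfolded protein response (23), heat shock (14), cholesterol (20), hypoxia and glycolysis (25), circadian clock (12), metallothionein (7), inhibitor of differentiation (4) or ribosome biogenesis (15) lists; ISG15, ATF4, DDIT3, HSPA5, VEGFA and MT2A were among them.

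Set against untreated cells at 0 h, p53 targets and mitotic genes were called at 6 h. Irradiated cells at 3 h had 0 called genes by limma (1111 at an unadjusted p under 0.05). Irradiated cells at 6 h had 48 (0.331%), 30 higher and 18 lower. Among them, 13 of 43 p53 targets were higher (0.207% of all genes) and 9 of 49 mitotic genes lower (0.124%). TP53INP1 was 1.90 ± 0.18 log2 above 0 h at 6 h, CDKN1A 0.98 ± 0.10, DDB2 0.85 ± 0.09 and PLK1 -1.23 ± 0.16. The 0 h arrays themselves spread, with TP53INP1 at 7.23, 6.76 and 6.35 log2 (replicates 1 to 3). Relative to their own mean they had 0.12, 0.06 and -0.18 log2 for the p53 targets. For the mitotic genes they had 0.06, 0.13 and -0.20 log2. Without replicate 2, or without the block, 0 genes were called. These comparisons share arrays with the time step.

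The same time step in untreated cells had 0 called genes by limma (467 at an unadjusted p under 0.05). CDKN1A had 10.53, 10.41 and 8.35 log2 at 6 h, against 8.43, 8.58 and 10.18 at 3 h, so that replicates 1 and 2 rose and replicate 3 fell. PLK1 had 7.54, 7.84 and 8.13 log2 at 6 h, against 8.60, 8.53 and 7.42 at 3 h, with the reverse split. Without replicate 3, 318 genes were called, 69 higher (0.476%) and 249 lower (1.72%). The irradiated minus untreated time step, tested as an interaction, differed for 1 gene of 14487 (0.0069%), EGR1. Untreated EGR1 stood at 9.40, 9.63 and 9.38 log2 at 6 h, against 8.82, 8.94 and 9.17 at 3 h, and the interaction was -1.65 ± 0.22 log2 (adjusted p = 0.0287, limma); without any 1 of the replicates 0 genes were called. For the p53 targets the median interaction was 0.17 and for the mitotic genes -0.35 log2, with 0 called in either list.

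**Figure D4:**
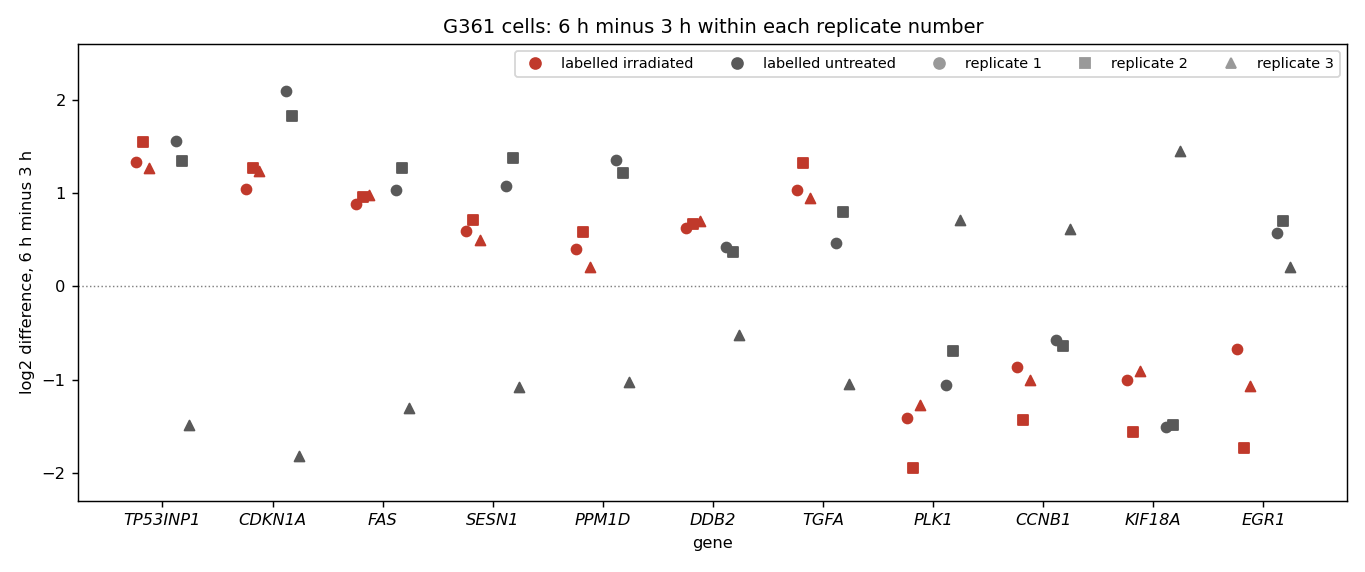
Difference in log2 expression, 6 h minus 3 h, within each replicate number of G361 cells labelled irradiated (red) and untreated (dark grey). CDKN1A rises in all 3 irradiated pairs and in untreated replicates 1 and 2, but falls in untreated replicate 3; EGR1 falls in all 3 irradiated pairs and rises in all 3 untreated pairs.

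The time step was then compared with that of the mean of irradiated TK6 (B lymphoblasts), U2OS (osteosarcoma) and BJ (fibroblasts), in 1 fit of the 30 irradiated arrays. In that fit the time step itself was called for 0.362% of genes in G361, beside 8.2% in TK6, 5.41% in U2OS, 1.45% in BJ and 1.02% in the line labelled HepG2. Of 16027 genes 41 differed (0.256%), 12 higher in G361 (0.0749%) and 29 lower (0.181%), and 9 p53 targets were among the higher and 7 mitotic genes among the lower. CDKN1A rose by 1.18 ± 0.08 log2 in G361, and differed by -0.21 in TK6, 0.28 in U2OS and -0.15 in BJ (G361 minus their mean 1.21 ± 0.09, adjusted p = 1.58e-07, limma). TP53INP1 was also higher than the mean of the 3 lines (1.29 ± 0.11), as were FAS (0.57), SESN1 (0.62), SERTAD1 (0.72) and the histone H2AC6 (0.80). SERTAD1 and H2AC6 were not called in G361 alone. TP53INP1 rose by 1.38 in G361 and 0.95 in U2OS, and differed by -0.17 in TK6 and -0.49 in BJ. FAS rose more in U2OS (1.26) than in G361 (0.94), and differed by -0.23 in TK6 and 0.08 in BJ. SESN1 rose by 0.60 in G361 and 0.45 in U2OS, and differed by -0.005 in TK6 and -0.51 in BJ. PLK1 differed by -1.54 in G361, 0.62 in TK6, -0.80 in U2OS and -0.95 in BJ (G361 minus their mean -1.17 ± 0.13, adjusted p = 0.000107). KIF18A (-1.38) and PSRC1 (-1.24) were lower with TK6 rising by 1.13 and 1.69, and EGR1 was lower too (-1.74). DDIT3 (-0.81) and PRICKLE1 (-1.25) differed without a call in G361 alone. At 3 h the mean level of the p53 targets relative to 0 h had a median of 0.11 log2 in irradiated G361. Irradiated TK6 had 1.05, U2OS 0.51 and BJ 0.36 log2. For the mitotic genes this 3 h median was 0.23 log2 in irradiated G361, whereas TK6 had -0.80, U2OS -0.33 and BJ -1.01. At 6 h it was -0.36 (G361), -0.44 (TK6), -0.68 (U2OS) and -1.44 (BJ). Mitotic genes of TK6 thus rose from below their 0 h level and stayed below it. The irradiated BJ arrays at 3 h spread from -1.13 to -0.13 log2. The part of these starting levels in the differences was not tested. Between 5 and 15 genes were called without any 1 replicate number and 9 without the block.

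Against the line labelled HepG2 18 genes differed (0.112%), 3 higher in G361 (0.0187%) and 15 lower (0.0936%), with 7 p53 targets among the lower ones. FUCA1 rose by 0.32 log2 in G361 and by 2.54 in HepG2 (difference -2.22 ± 0.12, adjusted p = 3.66e-10, limma), and GDF15 by 0.34 and 1.83 (-1.49 ± 0.13). TP53INP1 also rose less in G361 (1.38) than in HepG2 (2.16), with a difference of -0.77 ± 0.14. SESN1 (-0.99), PHLDA3 (-0.92), TRIAP1 (-0.55) and NATD1 (-1.37) were lower, and H2AC6 (0.87) and ENC1 (0.63) higher. For ZNF300P1 (0.88) G361 lay below the level limit. Without any 1 replicate number, 2 to 3 genes were called, and without the block 3. This comparison used no untreated arrays. In cells labelled untreated HepG2 the p53 targets, relative to 0 h, stood at 0.58, 0.64 and 0.60 log2 at 6 h. At 3 h they stood at 0.03, 0.27 and 0.21 log2. The mitotic genes there had -0.15, -0.15 and -0.18 log2 at 6 h, against 0.27, 0.31 and 0.25 at 3 h. The part of irradiation in the HepG2 time step was not tested.

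**Figure D5:**
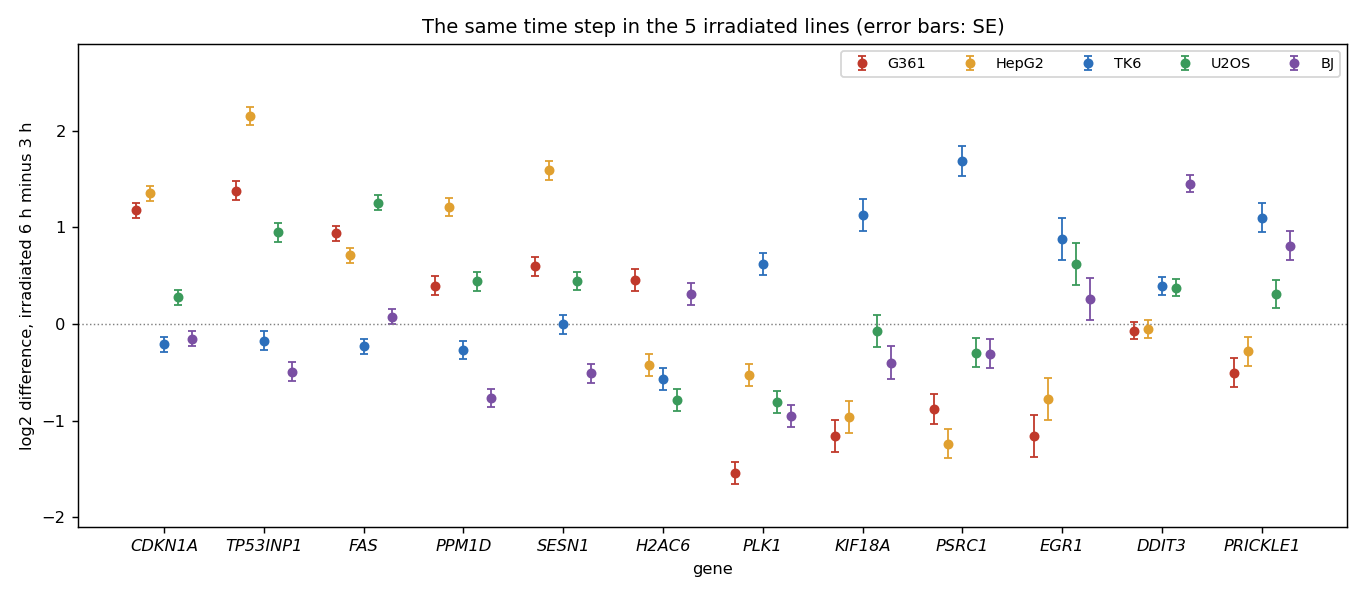
Log2 difference, irradiated 6 h minus irradiated 3 h, of 12 genes in the 5 lines as labelled, from 1 fit of 30 arrays with error bars of 1 SE. CDKN1A stands at 1.18 in G361 and 1.36 in HepG2, beside -0.21 in TK6, 0.28 in U2OS and -0.15 in BJ; PLK1 stands at -1.54 in G361 and 0.62 in TK6.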

How the data were processed

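RNA of irradiated G361 cells was read on 6 single-sample oligonucleotide arrays. The authors deposited log2 values made with RMA, which the submitters' processing notes name without a version, with joint or line-wise normalization not given in the sources used here. Of 54675 probe sets 41097 had 1 symbol, and each of 19775 genes was represented by its probe set of highest mean over 75 arrays. The 14487 genes whose mean over 15 G361 arrays passed the 40th percentile were tested with limma 3.58.1 in R 4.3.3 (eBayes with trend, replicate number as a block, Benjamini-Hochberg, threshold 0.05; 2 residual and 12.73 prior degrees of freedom). Over 14487 genes simulated for this comparison, 93 of 100 changed by 0.5 log2 and 100 of 100 changed by 1 were called, with 11 false calls in all. The simulated noise had the same spread for every gene, unlike real genes. These counts therefore cannot show how many real changes are found or how many real calls are false. The numbers pair the 6 arrays: deviations of equal numbers correlated at 0.667, 0.391 and 0.500, and of unequal numbers at most at -0.335, 0.194 and 0.078. Between irradiated 6 h and untreated 0 h arrays, equal numbers correlated at 0.618, 0.174 and 0.411. There replicate 2 correlated more with another number (0.322), so the block did not pair it. Line comparisons used 30 irradiated arrays and 16027 genes. Members, the 20 lists (511 genes, 462 measured) and tests were chosen with earlier results of these data known. Named genes were the 12 largest called rises and falls with 3 pairs the same way, core list members, up to 4 further called members a list and the 6 smallest p a direction in the line comparisons; other list members named were chosen after their values were seen. Alternatives changed the block, filter, normalization, probe sets, arrays, variance trend and replicates. Promoters are RefSeq's.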

Additional observations from a re-analysis of the deposited data

Results flagged for a closer look

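These results are tests of a difference between 2 groups' time steps, 6 h minus 3 h; the values are log2 differences and limma was used throughout. Irradiated minus untreated G361 cells differed for 1 gene, EGR1, at -1.6518.

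Irradiated G361 minus the mean of TK6, U2OS and BJ differed for 41 genes. On the higher side were CDKN1A (1.208), TP53INP1 (1.2881), FAS (0.5727), H2AC6 (0.7988), SESN1 (0.6221) and SERTAD1 (0.7219). FAS was higher than the mean only, as it rose more in U2OS (1.26) than in G361 (0.94). On the lower side were PLK1 (-1.1661), DDIT3 (-0.8093), PRICKLE1 (-1.2454), KIF18A (-1.3756), PSRC1 (-1.2421) and EGR1 (-1.7437).

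Irradiated G361 minus the line labelled HepG2 differed for 18 genes. Higher were H2AC6 (0.8746), ZNF300P1 (0.8809) and ENC1 (0.6281). Lower were FUCA1 (-2.2211), GDF15 (-1.4949), SESN1 (-0.9913), TRIAP1 (-0.5494), PHLDA3 (-0.9212) and NATD1 (-1.3711).

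Groups of 3 arrays are too small for a test of single outlying arrays.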

How the results depend on the processing

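Of 12 alternatives, 5 gave a number of calls within 1.5 times of 232. These were no level filter (227), the 60th percentile (222), quantile normalization (220), centring (230) and leaving out replicate 3 (223). The genes were not all the same: 225, 218, 196, 205 and 158 of the 232 calls were shared, respectively. The count was 7 with no replicate block, 84 with the mean of all probe sets, 11 with all 15 G361 arrays, 58 with 30 irradiated arrays and 6 without the variance trend; leaving out 1 replicate gave 68 to 388. No call reversed, except 2 genes that are not named here, under the mean of probe sets. CENPE was called under all 12 alternatives and CCNB1, CDC20, KIF20A and KIF2C under 11. In the same order of settings the p53 targets called higher were 0, 12, 1, 15 and 3, and 12 to 24 leaving out a replicate; the mitotic genes called lower were 5 with no block, 7 with 15 arrays, 16 with 30 arrays and 2 without the trend, and 30 to 43 leaving out a replicate. Of the 58 named called genes, 7 kept their call without the block, 37 with the mean of probe sets and 36 without replicate 2. Irradiated 3 h minus untreated 0 h had 1 call with no level filter. Irradiated 6 h minus untreated 0 h had 0 with no block and 0 to 53 leaving out a replicate. The untreated time step had 0 to 318 leaving out a replicate; a 60th percentile filter, chosen after seeing the data, gave 0. The interaction had 0 with no block and 0 leaving out any replicate. The comparison with TK6, U2OS and BJ had 9 with no block and 5 to 15 leaving out a replicate, and that with HepG2 3 and 2 to 3. With 2 residual degrees of freedom, the number of calls rests on variances shared across genes. The cause of these shifts was not tested. No background signal was used, so the limit set by dim probes is unknown.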

Other observations

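Of the 232 called genes 155 were in no list, 58 higher and 97 lower. The examples here were chosen after their values were seen. Among the lower ones, INCENP, the scaffold of the passenger complex, fell by 0.66, TACC3 by 0.62, RACGAP1 by 0.61, KIFC1 by 0.57, ECT2, which triggers cytokinesis, by 0.46 and MKI67, the proliferation antigen Ki-67, by 0.37. The transcription factor POU3F2 fell by 0.63, SOX5 by 0.57 and the nuclear receptor RXRG by 0.36. BCL2, an inhibitor of apoptosis, fell by 0.51. Among the higher ones were FOXO1 (0.50) and MXD1, an antagonist of MYC (0.50), ENC1 (0.65) and ISCU, of iron-sulphur cluster assembly (0.48). ACTA2, smooth muscle actin, whose gene neighbours FAS on the genome, rose by 0.66.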
